A study of Mus musculus with 6 samples.

Results

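RNA polymerase II was followed over 8 genes of the mevalonate and sterol pathway that are controlled by the transcription factor SREBP2. They were chosen by name from the 12718 genes counted in the series, and all 8 had a row at the transcription start site (TSS), over the gene body and at the transcription end site (TES). The measurement was chromatin immunoprecipitation and sequencing (ChIP-seq) of adrenal glands with an antibody against the N-terminal domain of RPB1, the largest polymerase subunit. There were 3 wild-type (WT) mice and 3 homozygous knockouts, labelled Armc5(-/-), all female, of strain 129 sv X CD1 and 10 to 14 months old. The 6 libraries carry separate mouse numbers, so n = 3 mice per genotype, and no agent was given to either group as far as the labels say. Armc5 encodes an adaptor of the CUL3 ubiquitin ligase whose known substrates include RPB1. The glands were used whole, so cortex, medulla and vessels were mixed, and fewer cells of a type cannot be told apart from less polymerase per cell.

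Cholesterol is the precursor of every adrenal steroid hormone, and the cortex both takes it up from lipoproteins and makes it from acetyl-CoA. When sterols in the endoplasmic reticulum are low, SCAP carries SREBP2 to the Golgi, where proteases release the part that enters the nucleus and activates the pathway's genes. When sterols are high, INSIG proteins hold SCAP and SREBP2 back. The 8 genes were read in this order of roles. Srebf2, which encodes SREBP2, and Insig1 are the regulators. Hmgcs1 (HMG-CoA synthase), Mvd (mevalonate diphosphate decarboxylase), Idi1 (isopentenyl diphosphate isomerase) and Fdps (farnesyl diphosphate synthase) are the early steps, before squalene. Sqle (squalene epoxidase) and Cyp51 (lanosterol demethylase) are the late steps.

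RefSeq sequence of GRCm38.p6 was matched by symbol for the 250 bases upstream of the annotated start of 6 of the 8 genes, namely Srebf2, Insig1, Hmgcs1, Mvd, Idi1 and Cyp51. Of these, 3 upstream sequences are shown because they cover the gene with the full sterol element letters (Hmgcs1), the gene with the highest gene body estimate (Idi1) and the regulator with the largest promoter count (Insig1). The 224 bases between the end of Fdps and the start of its neighbour Rusc1 are shown because the TES result of Fdps lies beside them. All are printed 5′ to 3′ on the strand of transcription. Capitals mark CCAAT, the letters bound by NF-Y, GGGCGG, those bound by Sp1, and CACNCCAC, the core of the sterol regulatory element, each on either strand.
Hmgcs1, chr13:119690101-119690350, plus strand: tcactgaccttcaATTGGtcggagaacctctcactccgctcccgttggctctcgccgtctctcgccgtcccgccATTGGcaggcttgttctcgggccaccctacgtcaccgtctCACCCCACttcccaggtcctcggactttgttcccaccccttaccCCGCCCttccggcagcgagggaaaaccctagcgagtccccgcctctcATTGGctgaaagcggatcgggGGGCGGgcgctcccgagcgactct
Idi1, chr13:8885356-8885605, plus strand: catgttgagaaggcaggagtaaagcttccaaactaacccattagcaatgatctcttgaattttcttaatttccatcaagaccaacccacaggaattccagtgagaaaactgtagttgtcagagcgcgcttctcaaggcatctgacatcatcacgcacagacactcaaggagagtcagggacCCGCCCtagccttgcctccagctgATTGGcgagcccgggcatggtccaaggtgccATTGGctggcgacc
Insig1, chr5:28071162-28071411, plus strand: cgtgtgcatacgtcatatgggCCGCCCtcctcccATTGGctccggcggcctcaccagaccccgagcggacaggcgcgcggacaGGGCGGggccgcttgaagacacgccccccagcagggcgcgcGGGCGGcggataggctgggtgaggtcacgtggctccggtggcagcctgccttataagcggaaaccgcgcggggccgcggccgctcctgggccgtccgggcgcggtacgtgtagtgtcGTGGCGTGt
Fdps to Rusc1, chr3:89093364-89093587, minus strand: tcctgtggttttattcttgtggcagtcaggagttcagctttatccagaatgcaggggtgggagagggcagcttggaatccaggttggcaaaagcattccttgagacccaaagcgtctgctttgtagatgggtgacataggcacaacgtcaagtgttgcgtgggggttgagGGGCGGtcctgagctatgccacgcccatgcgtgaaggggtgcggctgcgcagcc

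CCAAT was found in 6 of the 6 upstream sequences, against 33.8% of 32851 RefSeq start windows of the same length. GGGCGG was also found in 6 of 6, against 32.7%. The longer sterol element TCACNCCAC, which contains CACNCCAC, was found upstream of Hmgcs1 alone, with its first base 137 bases before the start, against 1.05% of all windows. CACNCCAC was found in Hmgcs1 and in Insig1, where it lies on the opposite strand beginning 9 bases before the start, against 5.29% of windows. The E-box CACGTG was found in 1 of 6 (Insig1, 101 bases upstream), against 6.02%, and TATAAA in 0 of 6, against 12.4%. These matches are letters in a window and were not measured as binding sites.

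The libraries held between 14511177 and 28190157 counts over the 3 regions. WT replicates 1 and 2 and knockout replicate 1 were the shallowest. Levels are given in CPM, counts scaled to the library's total within the same region. Cortex markers had rows for 9 of 9 genes, and their summed gene body level was 2819.7 to 7030.2 CPM in WT and 4544 to 5661 CPM in the knockout. Chromaffin cell markers had rows for 6 of 6 genes and ranged from 242 to 464 CPM in WT, against a range of 325 to 873 CPM in the knockout. Capsule and fibroblast markers, with rows for 2 of 5 genes, ranged from 84.6 to 253 CPM in WT, against a range of 61.6 to 73.7 CPM in the knockout. Their part in the results was not tested. Armc5 itself was not analysed here. The gene body of 9130023H24Rik, which overlaps it, was at 14.8 ± 2.67 CPM in WT (SD, n = 3) against 4.77 ± 0.498 CPM in the knockout. Its log2 fold change was -1.64 (edgeR, adjusted p = 0.0368), a call made for 0.252% of tested gene bodies.

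Among the 8 genes 1 change passed the test, a rise of RPB1 at the TES of Fdps to 2.08 times the WT level in the knockout. Polymerase at the promoter of the neighbour Rusc1 cannot be told apart from it in these counts. Idi1 had the next largest estimates, 1.82-fold over its gene body and 1.77-fold at its TES, and neither passed. At the TSS 0 of the 8 genes were called by the edgeR quasi-likelihood test, with 0 at an unadjusted p under 0.05 and 0 called by DESeq2. Calls made up 0.339% of the 12682 genes tested there, and 5.57% had an unadjusted p under 0.05. DESeq2 called 0.795% of the 11944 genes it gave an adjusted p. Over gene bodies 0 of 8 were called, with 1 at an unadjusted p under 0.05, and DESeq2 called 1, which was Idi1. Calls by edgeR made up 0.252% of 12714 genes, and 5.05% had an unadjusted p under 0.05. DESeq2 called 1.41% of the same number of genes. At the TES 1 of 8 was called, against 0.915% of 12680 genes in either direction and 0.82% in the higher direction. Unadjusted p-values under 0.05 were found there for 3 of 8 (Fdps, Idi1 and Insig1), against 6.85% of genes. The median log2 fold change of the 8 genes was -0.01 (TSS), -0.04 (gene body) and 0.05 (TES), beside -0.01, -0.02 and -0.02 for all tested genes.

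**Figure D1:**
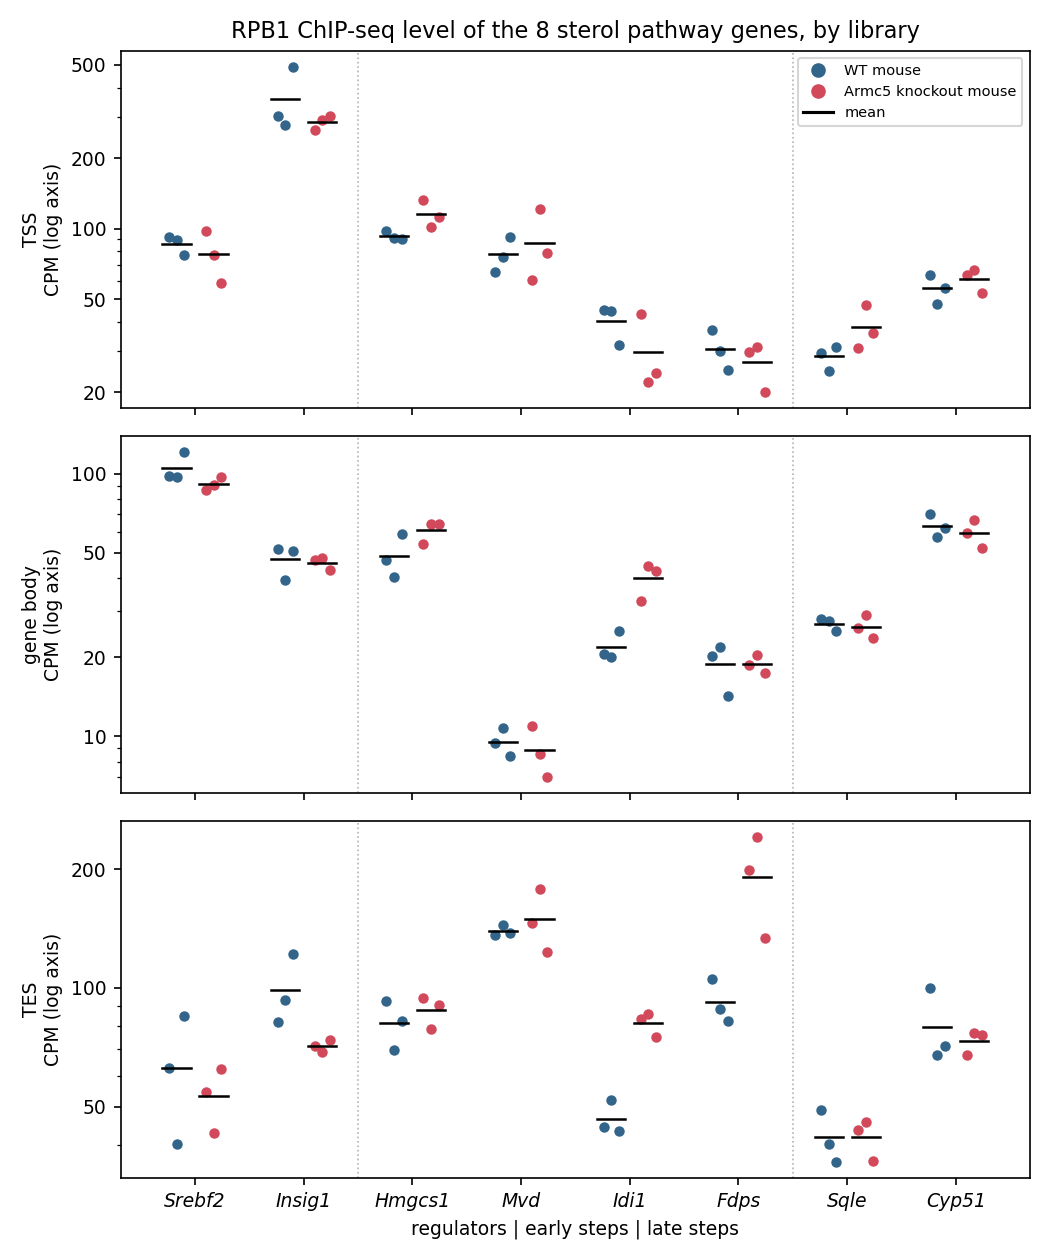
RPB1 level of each gene in each library, in CPM of the region's table on a log axis, with WT in blue, knockout in red and the mean as a bar. At the TES the 3 knockout libraries of Fdps (134 to 242 CPM) and Idi1 (75.2 to 85.9 CPM) lie above all 3 WT libraries, and those of Insig1 (69.0 to 73.8 CPM) lie below them.

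The regulators came first. Srebf2 (chromosome 15, 82147269 to 82205379) had gene body levels of 98.0, 97.0 and 121 CPM in WT, against 86.5, 91.0 and 97.6 CPM in the knockout. The groups overlapped, and the log2 fold change was -0.20 ± 0.14 (SE; edgeR, adjusted p = 0.934). Its estimates at the TSS and TES were -0.15 ± 0.20 and -0.27 ± 0.24, also with overlapping groups. The annotation places Mir33, the precursor gene of miR-33, inside Srebf2. Shisa8, on the opposite strand, ends 793 bp beyond Srebf2, but neither has a row here.

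Insig1 (chromosome 5, 28071412 to 28078662) carried a large part of its counts at the promoter. The TSS held 32.3% to 52.2% of the gene's counts in the WT libraries, where the median of all genes was 8.06% to 12.1%. Its TSS levels were 304, 277 and 490.0 CPM in WT, against 263, 292 and 303 CPM in the knockout, so the groups overlapped, with WT replicate 3 well above the other libraries. At the TES the WT libraries had 82.2, 93.1 and 122 CPM and the knockout libraries 71.3, 69.0 and 73.8 CPM. All 3 knockout values were below all 3 WT values, a separation seen in that direction for 4.83% of tested genes. The TES log2 fold change was -0.48 ± 0.23 (unadjusted p = 0.0396, edgeR quasi-likelihood test) and did not pass (adjusted p = 0.665). The gene body estimate was -0.04 ± 0.15. Insig1 lies within the long noncoding RNA gene Gm35223 on the opposite strand, so reads of both cannot be told apart.

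Of the early steps, Hmgcs1 (chromosome 13, 119690351 to 119708260), the gene of the first committed condensation towards HMG-CoA, had TSS levels of 98.0, 91.0 and 89.9 CPM in WT, against 132, 102 and 113 CPM in the knockout. The knockout libraries were all higher, as for 6.46% of genes at the TSS, and the log2 fold change of 0.31 ± 0.16 did not pass (edgeR, adjusted p = 0.942). In its gene body WT ranged from 40.3 to 59.1 CPM and the knockout from 54.0 to 64.5 CPM, so the groups overlapped (log2 fold change 0.32 ± 0.17). At the TES the estimate was 0.09 ± 0.22. Nim1k, on the opposite strand, ends 1833 bp beyond the end of Hmgcs1. The TES counts of Hmgcs1 were 157, 71 and 189 in WT and 123, 172 and 184 in the knockout. Those of Nim1k were nearly the same, 150, 73 and 187 and 122, 167 and 182, with an estimate of 0.09 ± 0.22. Polymerase at the ends of both genes cannot be told apart in these counts. The sequence shown above for Hmgcs1 belongs to a promoter whose RPB1 estimate was 1.24-fold. Its approximate 95% limits were -0.0032 and 0.62 on the log2 scale.

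Mvd (chromosome 8, 122433596 to 122443422), which makes isopentenyl diphosphate, had gene body levels of 9.52 ± 1.17 CPM in WT (SD, n = 3) against 8.83 ± 1.98 CPM in the knockout. Its TSS ranged from 65.3 to 92.2 CPM and from 60.2 to 121 CPM, and its TES from 137 to 144 CPM and from 123 to 179 CPM. The groups overlapped in all 3 regions, with log2 fold changes of 0.17 ± 0.25, -0.11 ± 0.23 and 0.10 ± 0.24. The TES held 40.0% to 44.3% of the counts of Mvd in WT, against a median of 8.37% to 8.66% over all genes. The gene Cyba, transcribed in the same direction, starts 655 bp beyond the end of Mvd, so their windows can share reads. The long noncoding RNA gene Gm51557 lies inside Mvd on the opposite strand, and 9330133O14Rik lies 233 bp from the start of Mvd. Neither has a row here, and reads of Gm51557 and Mvd cannot be told apart.

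Idi1 (chromosome 13, 8885606 to 8892396), which interconverts the isoprene building blocks of the pathway, had gene body levels of 20.6, 20.1 and 25.1 CPM in WT. The knockout libraries had 32.9, 44.5 and 42.4 CPM. All 3 knockout values were higher than all 3 WT values, as for 6.51% of tested gene bodies, and the log2 fold change was 0.86 ± 0.18 (edgeR quasi-likelihood test, unadjusted p = 0.00113, adjusted p = 0.15). At the TES the WT libraries had 44.3, 51.9 and 43.3 CPM and the knockout libraries 83.5, 85.9 and 75.2 CPM. Here too the groups were apart, a separation found for 6.7% of genes, with a log2 fold change of 0.82 ± 0.22 (edgeR, adjusted p = 0.0604).

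The TSS of Idi1 had an estimate of the opposite sign. Its levels were 45.2, 44.4 and 32.0 CPM in WT, against 43.3, 22.2 and 24.1 CPM in the knockout, with overlapping groups and a log2 fold change of -0.45 ± 0.30. Its ratio of TSS to gene body CPM was 2.2, 2.22 and 1.27 in WT and 1.32, 0.498 and 0.569 in the knockout. Knockout replicate 1 lay just above the lowest WT library, and the other knockout libraries lay below all of WT. The ratio's log2 change was -1.34 ± 0.43 in the test of region by genotype (edgeR, unadjusted p = 0.0129, adjusted p = 0.955). The ratio of TES to gene body differed little, at -0.04 ± 0.23. Among genes with a row, 0 lie within 5 kb of Idi1, so no counted neighbour shares its windows at that distance.

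The call of Idi1 depended on the fit. With DESeq2 the gene body passed (log2 fold change 0.85, adjusted p = 0.00201), as it did in a fit that held depth class (0.74, adjusted p = 0.0473). The TES passed when depth class (0.85, adjusted p = 0.0239) or the first part of the mouse number (0.82, adjusted p = 0.0494) was a covariate. Chromaffin markers had gene body estimates above 0 in 6 of 6 genes (median log2 fold change 0.81), with overlapping groups in all 6 and 0 called. Their part in the values of Idi1 was not tested.

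Fdps (chromosome 3, 89093588 to 89101967), the enzyme that makes the farnesyl diphosphate from which squalene, dolichol and prenyl groups are built, had TES levels of 105, 88.2 and 82.7 CPM in WT. The knockout libraries had 199, 242 and 134 CPM at the TES. The lowest knockout value was above the highest WT value, as for 6.7% of genes at the TES. The log2 fold change was 1.06 ± 0.25 (edgeR quasi-likelihood test, adjusted p = 0.0236). Its other regions had estimates near or under 0. The gene body was at 20.2, 21.9 and 14.2 CPM in WT, against 18.7, 20.4 and 17.4 CPM in the knockout (log2 fold change 0.00 ± 0.20, adjusted p = 0.997). Its TSS was at 37.0, 30.0 and 25.0 CPM and at 29.8, 31.2 and 20.1 CPM (-0.17 ± 0.28).

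The distribution of RPB1 along Fdps was compared by its ratio of TES to gene body CPM. The ratio was 5.20, 4.03 and 5.80 in WT and 10.7, 11.9 and 7.71 in the knockout, so the groups were apart, as for 5.53% of genes in that direction. The ratio's log2 change was 0.99 ± 0.22 (edgeR, unadjusted p = 0.00036, adjusted p = 0.254). In raw counts the TES held 23.7% to 32.5% of the reads of Fdps in WT and 40.1% to 47.5% in the knockout. For the median gene that share was 8.37% to 8.66% and 7.94% to 8.54%. Calls of this ratio made up 0.0158% of 12677 genes, and 0 of the 8 members were called, with 1 at an unadjusted p under 0.05 (5.7% of genes) and 0 called by limma.

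**Figure D2:**
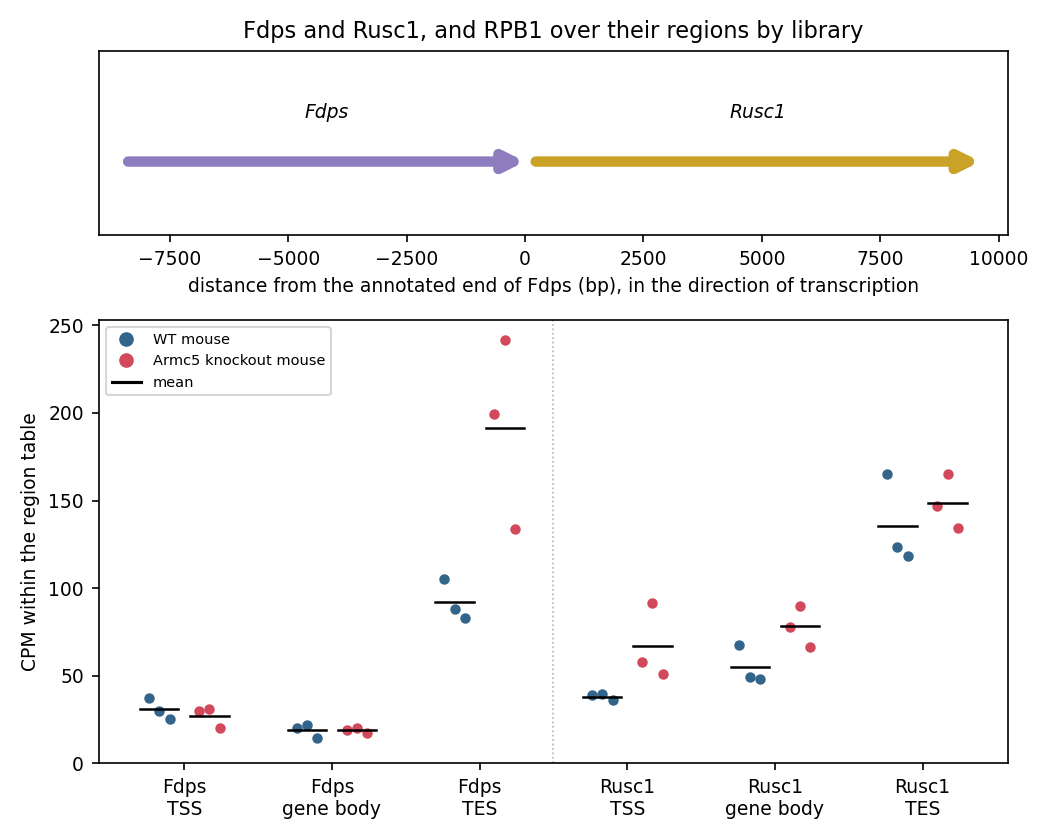
Upper panel, Fdps and Rusc1 as arrows in the direction of transcription, in bp from the annotated end of Fdps, with 224 bp between the genes. Lower panel, CPM of each region in each library, with WT in blue, knockout in red and the mean as a bar. The Fdps TES and the Rusc1 TSS, which face each other across the gap, have all 3 knockout libraries above WT, whereas the gene body of Fdps does not.

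Rusc1, which encodes an adaptor protein with RUN and SH3 domains, lies in tandem with Fdps (chromosome 3, 89083975 to 89093363, minus strand). Fdps is known to be transcribed towards it, so the end of Fdps and the start of Rusc1 are separated by the 224 bases shown above. The TSS of Rusc1 had 38.7, 39.3 and 35.8 CPM in WT, against 58.0, 91.7 and 50.9 CPM in the knockout. All knockout values were higher, as for 6.46% of genes at the TSS. The log2 fold change was 0.83 ± 0.25 (edgeR, unadjusted p = 0.006, adjusted p = 0.438). Its gene body estimate was 0.51 ± 0.19, from 54.9 ± 10.9 to 78.1 ± 11.7 CPM (SD, n = 3). It did not pass (edgeR, unadjusted p = 0.0246, adjusted p = 0.788). Its own TES was at 136 ± 25.7 and 149 ± 15.4 CPM.

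In both windows at the gap knockout replicate 2 was highest, knockout replicate 1 next and knockout replicate 3 lowest. The raw counts of the Fdps TES were 178, 90 and 189 in WT and 260, 529 and 272 in the knockout, and those of the Rusc1 TSS were 71, 38 and 112 and 103, 335 and 139. The Fdps TES thus held more reads than the Rusc1 TSS in 6 of 6 libraries. The window widths were not given in the sources used here. Polymerase at the end of Fdps and at the promoter of Rusc1 cannot be told apart in these counts.

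The Fdps call rested on single libraries and on the scaling. The adjusted p was 0.277 without knockout replicate 2 (log2 fold change 0.85), 0.0653 without WT replicate 1, 0.0524 without knockout replicate 1 and 0.0505 without WT replicate 2. With the 3 tables scaled together it was 0.0826 (log2 fold change 0.94).

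The late steps had no call. Sqle (chromosome 15, 59315092 to 59331193), a rate-limiting step after squalene, had TSS levels of 29.4, 24.8 and 31.4 CPM in WT, against 30.9, 47.3 and 35.9 CPM in the knockout. Knockout replicate 1 lay within the WT range, and the log2 fold change of 0.41 ± 0.25 did not pass (edgeR, adjusted p = 0.952). Its gene body ranged from 25.1 to 27.9 CPM in WT, against a range of 23.7 to 28.9 CPM in the knockout. The approximate 95% limits of its gene body estimate of -0.04 ran from -0.33 to 0.25 on the log2 scale. Those of the TES estimate of 0.00 ran from -0.46 to 0.47.

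Cyp51 (chromosome 5, 4080674 to 4104697), the first demethylation after lanosterol, had gene body levels of 70.4, 57.3 and 62.2 CPM in WT, against 59.4, 66.7 and 52.4 CPM in the knockout. The groups overlapped, and the log2 fold change was -0.09 ± 0.15, with approximate 95% limits of -0.38 and 0.20. The TSS and TES estimates were 0.12 ± 0.19 and -0.12 ± 0.22. Its ratio of TSS to gene body CPM was 0.898, 0.830 and 0.900 in WT and 1.07, 0.997 and 1.01 in the knockout, apart in all libraries, as for 4.5% of genes in that direction. The ratio's log2 change was 0.22 ± 0.19 (edgeR, adjusted p = 0.955). For the ratio of TSS to gene body 0 of the 8 genes were called by edgeR, 1 (Idi1) had an unadjusted p under 0.05 and limma called 0. Calls made up 0% of 12679 genes, and 3.64% had an unadjusted p under 0.05. Akap9 ends 469 bp from the end of Cyp51, and Washc5 lies 669 bp from Sqle. Their TES log2 fold changes were 0.21 ± 0.23 and 0.10 ± 0.27.

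**Figure D3:**
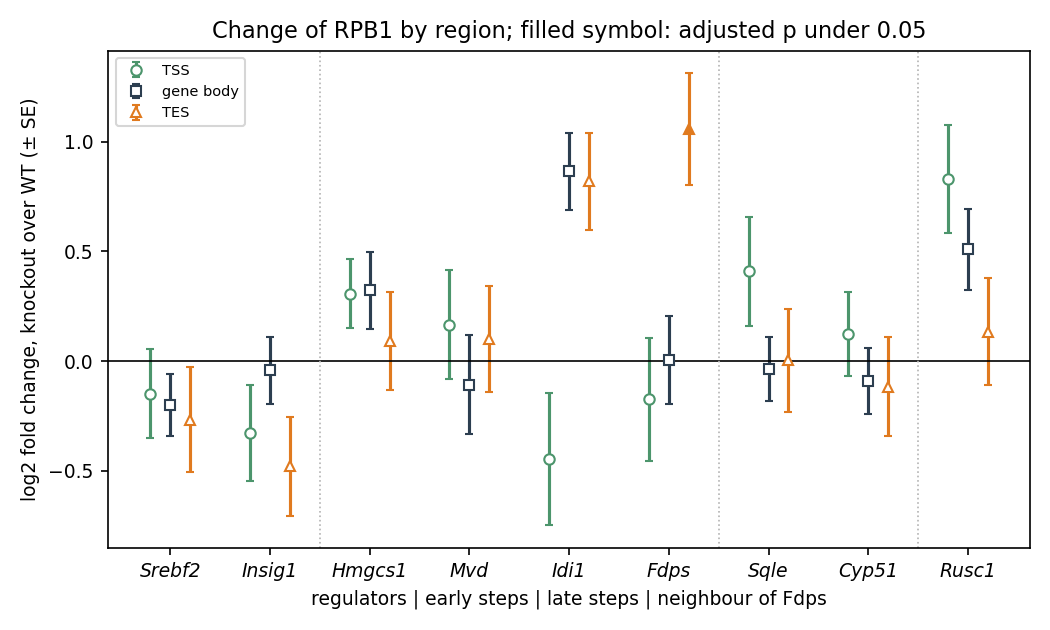
The log2 fold change of knockout over WT with its SE for each gene at the TSS (circles), gene body (squares) and TES (triangles). The Fdps TES is the filled symbol (1.06), Idi1 is above 0.8 in gene body and TES with its TSS at -0.45, and the late genes lie near 0 outside the TSS.

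Early and late steps were compared within each library as the mean log2 CPM of the 4 early genes minus that of the 2 late genes, a score that gets no test because its members were chosen with results known. In the gene body the score was -1.10, -0.93 and -0.95 in WT and -0.68, -0.72 and -0.55 in the knockout. At the TES it was 0.32, 0.66 and 0.65 in WT and 1.18, 1.14 and 0.97 in the knockout. In both regions every knockout library was higher than every WT library. The TES score includes Hmgcs1 and Fdps, whose TES counts cannot be told apart from those of Nim1k and Rusc1. At the TSS the score was 0.41, 0.68 and 0.28 in WT and 0.35, -0.05 and 0.06 in the knockout, and the groups overlapped.

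The knockout minus WT difference of the score was 0.34 for gene bodies, 0.55 for the TES and -0.33 for the TSS. Without Fdps it was 0.42, 0.38 and -0.29, and without Fdps and Idi1 it was 0.17, 0.14 and -0.06. Leaving out Idi1 as well as Fdps thus brought the difference nearer to 0 in all 3 regions. The medians of the early genes' log2 fold changes were -0.0041 (TSS), 0.16 (gene body) and 0.46 (TES). Those of the late genes were 0.27, -0.06 and -0.06, and those of the regulators -0.24, -0.12 and -0.37.

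**Figure D4:**
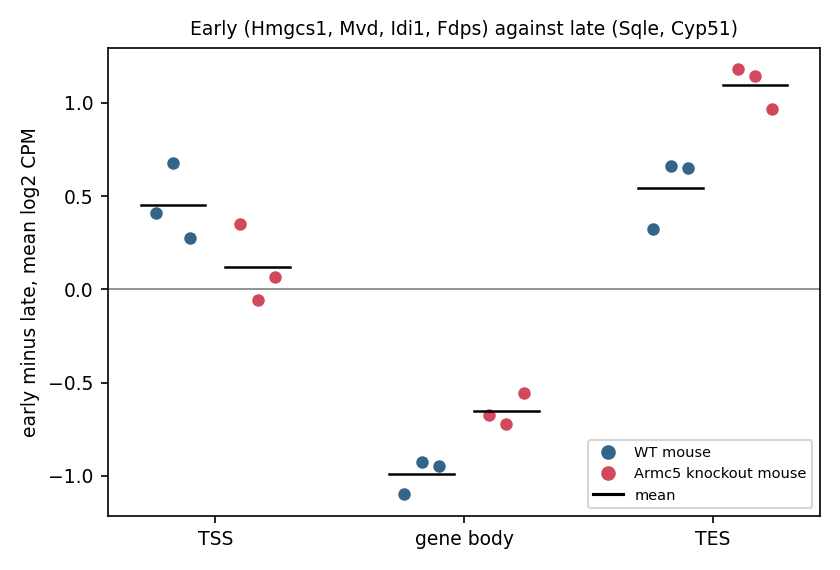
Early minus late score (difference of mean log2 CPM) of each library by region, with WT in blue, knockout in red and the mean as a bar. The knockout libraries lie above WT for gene bodies and the TES, while the groups overlap at the TSS.

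Levels were compared between genes per kb of annotated gene length, in gene body CPM. In WT, Insig1 stood highest at 6.52 ± 0.95 CPM per kb (SD, n = 3), between percentiles 91.7 and 93.8 of 12384 genes. Idi1 followed at 3.23 ± 0.41, Hmgcs1 at 2.72 ± 0.53, Cyp51 at 2.63 ± 0.27, Fdps at 2.24 ± 0.48, Srebf2 at 1.81 ± 0.24 and Sqle at 1.67 ± 0.09. Mvd was lowest at 0.968 ± 0.119, between percentiles 14.7 and 22.2. Insig1 lay above Idi1 and Sqle above Mvd in every WT library, while the other neighbours in the order had overlapping ranges. In the knockout Idi1 stood at 5.88 ± 0.91 CPM per kb, beside 6.33 ± 0.33 for Insig1. The range of Idi1 among all genes was percentile 76.9 to 81.4 in WT and 88.6 to 90.7 in the knockout.

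A wider list of the pathway held 32 genes, of which 28 had a row and were tested in each region while the other 4 were not analysed here. At the TES 1 was called, the higher Fdps. An unadjusted p under 0.05 was found there for 3 of the 28, against 6.85% of all genes. Neither the TSS nor the gene body had a call by edgeR, 0 and 0 genes. Unadjusted p-values under 0.05 were found for 0 of 28 at the TSS and 4 of 28 over gene bodies, against 5.57% and 5.05% of all genes. DESeq2 called 0 of the list at the TSS and 2 over gene bodies, Idi1 among them, against 0.795% and 1.41% of all genes. The median log2 fold change of the 28 genes was 0.00 (TSS), 0.01 (gene body) and 0.00 (TES). All 7 tested genes from acetyl-CoA to farnesyl diphosphate had TES estimates above 0, from 0.09 to 1.06, where all genes together had a median of -0.02. Among them, the TES counts of Hmgcs1 and Fdps cannot be told apart from those of Nim1k and Rusc1. With the 3 tables scaled together 4 of these 7 stayed above 0 and Hmgcs1, Mvk and Mvd turned, while the TES median of all genes moved to -0.12. Of the 12 tested genes from squalene to cholesterol, 5 had TES estimates above 0, and of the 6 of SREBP control, 2. Over gene bodies 6 of the 7, 7 of the 12 and 1 of the 6 had estimates above 0. Their median gene body log2 fold changes were 0.09, 0.01 and -0.11. An unadjusted p under 0.05 was found for 1, 2 and 0 of them (edgeR). Sqle and Cyp51 are among the 12, of which 0 were called over gene bodies by edgeR. Whether they differ from the other late steps was not tested.

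**Figure D5:**
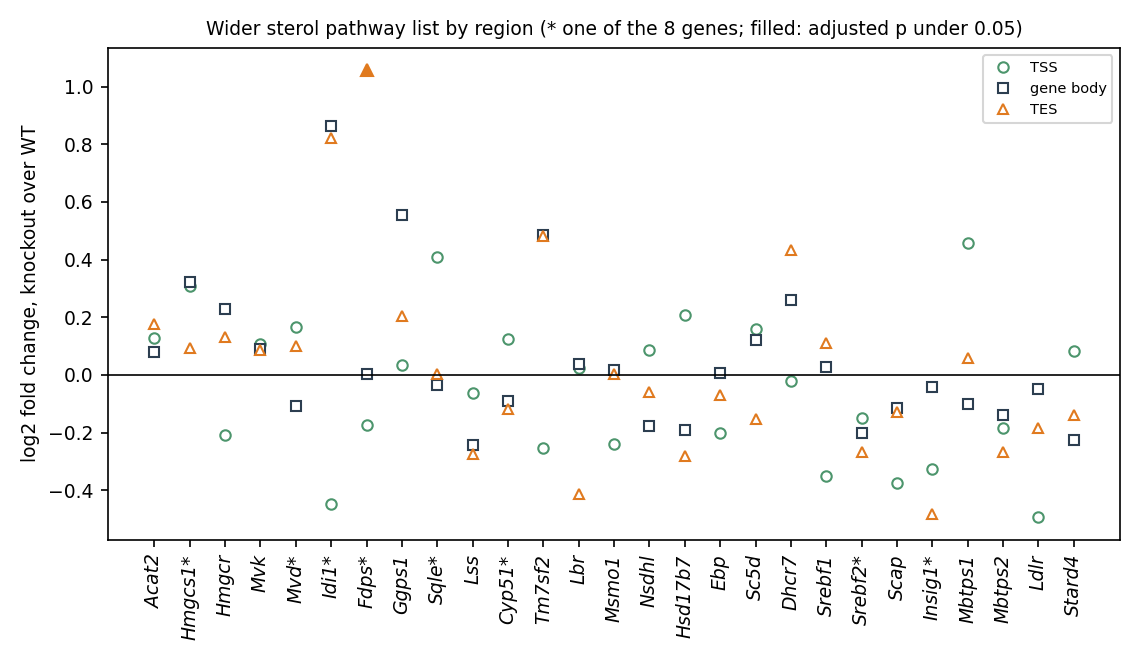
The log2 fold change of knockout over WT for 27 genes of the wider list, in pathway order, at the TSS (circles), gene body (squares) and TES (triangles). The single filled symbol is the Fdps TES, and the other values lie between -0.5 and 0.5 apart from those of Idi1 and the gene body of Ggps1.

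Uncalled genes of the wider list with the smallest p were these. At the TSS they were Mbtps1, a protease that cleaves SREBPs in the Golgi (0.46 ± 0.21), Hmgcs1, Srebf1, the gene of SREBP1 (-0.35 ± 0.17), and Insig1. In the gene body they were Idi1, Srebf2 and Stard4, a sterol carrier gene (-0.23 ± 0.18). At the TES they were Idi1, Dhcr7, the last reductase of the other branch (0.43 ± 0.24), Insig1 and Lbr, a sterol reductase of the inner nuclear membrane (-0.41 ± 0.25). As a reference value, the gene body log2 fold change of Star, the mitochondrial cholesterol importer, was -0.25 ± 0.31. That of Cyp11a1, which cleaves the side chain of cholesterol, was -0.11 ± 0.22. For Polr2a, the gene of RPB1, it was -0.64 ± 0.53. Gene body levels of Polr2a were 277, 224 and 920 CPM in WT. The knockout libraries had 188, 340 and 386 CPM, so the groups overlapped, with WT replicate 3 well above the other libraries.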

How the data were processed

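Counts per gene over the TSS, gene body and TES were used as deposited by the authors, 1 column per library with none pooled, and a table of the 3 regions stacked differed from them in 0 cells. The submitters' processing notes name GRCm38, mm10 and, without saying what each was used for, limma, edgeR, HOMER, MACS2, BWA, Picard, Trimmomatic and bcl2fastq 2.20. The counter, window widths and use of strand or input were not given in the sources used here, so windows of near genes can share reads. The TES counts of Hmgcs1 and Nim1k, whose ends lie 1833 bp apart, were nearly the same in each library.

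Each region table was tested whole with edgeR 4.0.16 in R 4.3.3 (TMM scaling, filterByExpr minimum count 10 and minimum total 15, quasi-likelihood F test between genotypes, Benjamini-Hochberg adjustment over all tested genes, call at an adjusted p under 0.05). All 8 members passed the filter in each region. The SE is the log2 fold change over the square root of F. CPM uses the TMM-scaled total of each region table. A ratio of CPM between regions therefore compares libraries and does not give the amount of polymerase in 1 region against another. Ratios of regions were tested as a region by genotype interaction with the library as block. The fits were tested on simulated data with known changes. Alternatives were RLE or joint scaling, no filter, DESeq2 1.42.0 (limma 3.58.1 for ratios), covariates, and leaving out each mouse. The genotypes' replicates differed by more than sampling noise (at least 4.92 chi-square per gene). Gene symbols matched RefSeq GRCm38.p6 for 12384 of 12718 genes, and coordinates are 1-based in that build. The orientation of Fdps is general knowledge.

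The members, lists and tests were chosen with earlier results of these data known. Genes named are the 8 members, genes with a row within 5 kb, the called genes of the wider list and the 2 uncalled with the smallest p per region and direction, and reference genes. Some results of the wider list are not reported here.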

Additional observations from a re-analysis of the deposited data

How the results depend on the processing

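Of 663 fold changes recomputed for the 8 genes, Rusc1 and the named genes of the wider list, 596 kept their direction and their side of the threshold, 56 changed sign with no call, 5 lost a call and 6 gained one. The cause of these changes was not tested unless stated. The members called in the gene body numbered 1 with DESeq2 and 1 with the depth class covariate, and the genes of the wider list 2 and 1, against 0. At the TES both counts were 0 under joint table scaling, 2 when the mouse number was a covariate and 2 with the depth class covariate, against 1, and from 0 to 1 when mice were left out.

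The correlation of same-numbered deviations ran from -0.593 to 0.439. It was below 0 in every region for replicate 2 and above 0 in every region for the other same-numbered pairs. These correlations, from so few mice per genotype, cannot decide whether replicate numbers pair the samples. With the replicate block the members called at the TES and the wider list were 2 and 2 (Fdps and Idi1, adjusted p = 0.0105 and 0.0209), and of all genes 100 (TSS), 0 (gene body) and 194 (TES) were called. The Cyp51 TES to gene body ratio turned to 0.0044 with the block.

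Calls over all genes were 43 (TSS), 32 (gene body) and 116 (TES). They were 95, 179 and 108 with DESeq2, 107, 0 and 61 under joint scaling, 74, 0 and 152 when the mouse number was held and 158, 95 and 184 with depth class. They ranged from 5 to 84, 0 to 37 and 73 to 149 when mice were left out. The TES ratio was called for 2 genes, for 9 with depth class, for 0 with RLE, joint scaling, limma, the block or the mouse number, and for 0 to 15 without a mouse, and the TSS ratio for 0, or 27 with depth class.

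Joint scaling moved the median of all genes by 0.25 (TSS), -0.10 (gene body), -0.10 (TES) and 0.36 for the TSS ratio. With it the sign turned for Srebf2 (0.11) and Fdps (0.10) at the TSS, Fdps in the gene body (-0.12), Hmgcs1 (-0.0068), Mvd (-0.0092) and Sqle (-0.10) at the TES, and the TSS ratios of Insig1 (0.13), Hmgcs1 (0.34) and Fdps (0.14). With depth class it turned for the Mvd TSS (-0.013) and gene body (0.0047), the TSS ratios of Hmgcs1 (0.15) and Mvd (-0.035) and the TES ratio of Idi1 (0.11). With RLE scaling it turned for Fdps in the gene body (-0.0080) and Sqle at the TES (-0.0074), with DESeq2 for the same (-0.0069 and -0.0079), and with limma for the Srebf2 TES ratio (0.011).

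Leaving out 1 mouse at a time gave log2 fold changes on both sides of 0. At the TSS they ran from -0.16 to 0.36 for Mvd, -0.33 to 0.019 for Srebf2 and -0.32 to 0.00071 for Fdps. In the gene body they ran from -0.16 to 0.026 for Insig1, -0.17 to 0.13 for Fdps, -0.29 to 0.028 for Mvd and -0.11 to 0.018 for Sqle. At the TES they ran from -0.22 to 0.076 for Cyp51, -0.0078 to 0.19 for Hmgcs1, -0.11 to 0.14 for Sqle, -0.48 to 0.019 for Srebf2 and -0.051 to 0.22 for Mvd. For the TSS ratio they ran from -0.21 to 0.10 for Hmgcs1, -0.18 to 0.27 for Srebf2 and -0.052 to 0.63 for Mvd. For the TES ratio they ran from -0.23 to 0.11 for Srebf2, -0.11 to 0.093 for Cyp51, -0.20 to 0.083 for Idi1 and -0.018 to 0.13 for Sqle.

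Depth limits the smallest windows. The Sqle TSS held 24 counts and the Fdps TSS 29 in WT replicate 2. The 3 mice per genotype bound what can pass.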
